A study of Mus musculus with 92 samples.

Results

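The 9 genes described here are 2 genes of secreted vascular growth factors, Vegfa and Vegfb, and 7 genes that mark and steer the endothelium, the cell layer that lines blood vessels: the VEGF receptors Kdr and Flt1, the TGF-beta co-receptor Eng, the angiopoietin receptor Tek with its relative Tie1, and the junction proteins Cdh5 and Pecam1. They were taken by name from a table of 13441 genes, and all 9 were in it. The table covers the quadriceps muscle of 92 mice of the DOz stock, an outbred population in which each animal inherits its own mix of alleles. The animals were about 18 to 20 weeks old, had been given standard chow all their lives and form 1 group, so the data can show how the genes differed between animals but hold no treatment, control or exercise group. Sex and body measurements were not analysed here. As whole muscle was sequenced, a lower value can stand for fewer endothelial cells or for less RNA in each of them, and these cannot be told apart.

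Skeletal muscle fibres secrete VEGF-A, which binds the receptors KDR (VEGFR2) and FLT1 (VEGFR1) on the surrounding capillaries. KDR carries most of the growth signal, while FLT1 binds its ligands tightly and signals weakly, and VEGF-B binds FLT1 but not KDR. Oxidative fibres are known for denser capillaries than glycolytic fibres, and the coactivator PGC-1 alpha, the product of Ppargc1a, is known to raise Vegfa in muscle together with mitochondrial genes.

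Libraries were made from polyadenylated RNA, and the deposited values are log2 expression, on a scale on which the linear values of a library add up to close to 10 to the power of 6 (the per-million scale). The median of a library lay between 3.43 and 3.55, and its linear values added up to between 898071 and 1140761. Myofibre genes dominated, with Acta1 of skeletal actin at a mean log2 value of 14.60 and Myh4 of the fastest myosin at 15.90. The title numbers of the animals fall into 5 runs, called title-number blocks here, whose meaning the labels do not give. Of the 9 genes, 0 differed between these blocks in limma's moderated F test at a Benjamini-Hochberg adjusted p under 0.05, against 2 of 13441 genes (0.0149%), and 2 of them, Tek and Tie1, had an unadjusted p under 0.05 (0.0494 and 0.0356).

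The stretches of DNA just upstream of 3 pairs of genes are shown because these pairs are set against each other within each animal below: the ligands Vegfa and Vegfb, the VEGF receptors Kdr and Flt1, and the receptors Tek and Tie1. Each line gives the 250 bases before the RefSeq start site (build GRCm38.p6), 5′ to 3′ in the direction of the gene. They lie at chr17:46032378-46032627 on the minus strand for Vegfa (the upstream one of its 2 listed starts), chr19:6987652-6987901 on the minus strand for Vegfb, chr5:75978456-75978705 on the minus strand for Kdr, chr5:147726012-147726261 on the minus strand for Flt1, chr4:94739039-94739288 on the plus strand for Tek and chr4:118489850-118490099 on the minus strand for Tie1.
Vegfa: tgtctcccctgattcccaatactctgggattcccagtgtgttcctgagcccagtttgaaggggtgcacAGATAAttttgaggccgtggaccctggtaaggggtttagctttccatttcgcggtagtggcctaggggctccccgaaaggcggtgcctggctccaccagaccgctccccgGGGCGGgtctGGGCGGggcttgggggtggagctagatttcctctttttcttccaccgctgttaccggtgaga
Vegfb: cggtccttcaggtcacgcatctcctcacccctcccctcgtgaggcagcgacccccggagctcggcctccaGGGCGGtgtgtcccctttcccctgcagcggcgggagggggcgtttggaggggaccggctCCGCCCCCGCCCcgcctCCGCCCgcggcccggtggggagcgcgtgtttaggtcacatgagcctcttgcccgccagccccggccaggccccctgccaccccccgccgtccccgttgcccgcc
Kdr: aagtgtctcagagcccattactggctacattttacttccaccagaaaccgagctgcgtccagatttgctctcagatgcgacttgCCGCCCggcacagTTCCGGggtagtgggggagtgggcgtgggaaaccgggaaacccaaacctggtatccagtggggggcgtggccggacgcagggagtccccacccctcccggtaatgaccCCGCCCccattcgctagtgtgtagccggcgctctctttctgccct
Flt1: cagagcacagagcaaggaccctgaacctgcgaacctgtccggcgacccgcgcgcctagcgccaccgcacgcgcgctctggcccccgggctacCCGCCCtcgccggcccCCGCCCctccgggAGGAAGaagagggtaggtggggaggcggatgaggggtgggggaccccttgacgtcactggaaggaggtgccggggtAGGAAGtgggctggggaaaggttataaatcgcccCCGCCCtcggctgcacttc
Tek: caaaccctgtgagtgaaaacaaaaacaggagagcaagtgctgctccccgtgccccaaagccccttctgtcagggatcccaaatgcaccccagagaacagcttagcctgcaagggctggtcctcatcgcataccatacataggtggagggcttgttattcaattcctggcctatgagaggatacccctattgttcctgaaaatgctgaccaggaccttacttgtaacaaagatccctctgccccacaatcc
Tie1: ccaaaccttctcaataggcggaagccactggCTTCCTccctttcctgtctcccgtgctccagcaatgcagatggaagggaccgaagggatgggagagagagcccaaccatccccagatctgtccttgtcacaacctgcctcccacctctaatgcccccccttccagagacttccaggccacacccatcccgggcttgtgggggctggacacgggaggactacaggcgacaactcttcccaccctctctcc
Capitals mark matches, on either strand, to any of 7 short motifs: the GC box GGGCGG, the ETS cores CCGGAA and AGGAAG, the GATA site AGATAA, the ERR half-site AAGGTCA, the NRF1 core GCATGCGC and the hypoxia response core ACGTG. No match in these 6 windows overlapped another. Vegfb had the most GC boxes, 4, and 76.4% G and C, against 2 GC boxes and 59.2% for Vegfa. Kdr held 2 GC boxes and 1 CCGGAA, Flt1 held 3 GC boxes and 2 AGGAAG, Tie1 held 1 AGGAAG, Vegfa also held 1 AGATAA, and Tek held no match. Among 32851 windows of the same length in the table, GGGCGG was in 32.7%, AGGAAG in 29.5%, ACGTG in 16.6%, CCGGAA in 12%, AGATAA in 9.99%, AAGGTCA in 4.08% and GCATGCGC in 2.26%. Eng and 1 further Vegfa window were also in the table, so 7 of the 9 genes had an entry; Cdh5 and Pecam1 did not. A match describes letters in a window and says nothing of binding.

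Of the ligands, Vegfa (chr17:46016993-46032369, minus strand) had the higher level. Its log2 value ran from 7.40 in the lowest animal through a median of 8.07 to 8.55 in the highest, a mean of 8.07 ± 0.24 (SD, n = 92). Vegfb (chr19:6982473-6987651, minus strand) ran from 5.53 through 6.20 to 6.70, with a mean of 6.18 ± 0.21. On the linear scale the highest animal exceeded the lowest 2.21-fold for Vegfa and 2.25-fold for Vegfb. Per kilobase of exon the gap between the ligands narrowed: mean log2 levels were 5.97 and 5.50, and Vegfa was the higher in 88 of 92 animals. This scaling allows levels of different genes to be compared only if the deposited values were not already scaled by length. The sources used here do not give that.

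Kdr (chr5:75932827-75978458, minus strand), the main signalling receptor for VEGF-A, ran from a log2 value of 4.04 through a median of 5.84 to 6.55, a mean of 5.73 ± 0.42 (SD, n = 92) and a 5.69-fold range. Flt1 (chr5:147561604-147726011, minus strand) covered less than that, from 5.16 through 5.93 to 6.47, with a mean of 5.91 ± 0.24 and a 2.48-fold range. A smooth trend over all genes gives an SD of 0.212 at the mean of Kdr, against its 0.42, which placed it at percentile 93.6 of all genes for excess spread; Flt1 was at percentile 65.9.

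Tek (chr4:94739289-94874976, plus strand) encodes the receptor that angiopoietins use to stabilise vessels. It ran from 3.22 through 4.55 to 5.11, a mean log2 value of 4.52 ± 0.29. Tie1 (chr4:118471191-118490061, minus strand), a receptor that pairs with TEK and has no well-defined ligand of its own, ran from 3.64 through 4.45 to 5.0, a mean of 4.45 ± 0.25. Eng (chr2:32646595-32682669, plus strand), whose exons overlap those of Fpgs on the opposite strand, ran from 4.09 through 5.31 to 5.93, a mean of 5.27 ± 0.31. Whether reads were assigned by strand is not given in the sources used here, so some of the Eng value could come from Fpgs. Their percentiles of excess spread were 69.8 for Tek, 56.2 for Tie1 and 81.4 for Eng.

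Of the junction genes, Cdh5 (chr8:104101625-104144511, plus strand) encodes VE-cadherin, the adhesion protein of endothelial junctions. Its log2 value ran from 4.96 through 6.09 to 6.63, a mean of 6.06 ± 0.27. Pecam1 (chr11:106654217-106750628, minus strand), whose protein CD31 is the usual stain for capillaries, was the steadiest of the 9 in fold range: it ran from 5.61 through 6.14 to 6.58, a mean of 6.14 ± 0.19 and a 1.96-fold range, at percentile 43.4 of excess spread. Whole-muscle Pecam1 thus varied less than the trend at its level, and Kdr more.

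Per kilobase of annotated exon the order of mean log2 levels was Vegfa 5.97, Vegfb 5.50, Cdh5 3.99, Pecam1 3.50, Eng 3.25, Kdr 2.55, Tek 2.28, Flt1 2.15 and Tie1 2.15. Most neighbours in that order were separated in most animals: Vegfb exceeded Cdh5 and Eng exceeded Kdr in 92 of 92, Cdh5 exceeded Pecam1 in 88, Pecam1 exceeded Eng in 82, Kdr exceeded Tek in 75 and Tek exceeded Flt1 in 67. Flt1 and Tie1 did not differ beyond their spread, with Flt1 higher in 49 animals and lower in 43. The order below the ligands depends on the length used, and the whole order on deposited values that were not already scaled by length. With the longest transcript of each gene in place of all its exons, Pecam1 (4.36) came above Cdh5 (4.06), and Flt1 (3.12) stood beside Kdr (3.16) and above Tek (2.30) and Tie1 (2.37).

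**Figure D1:**
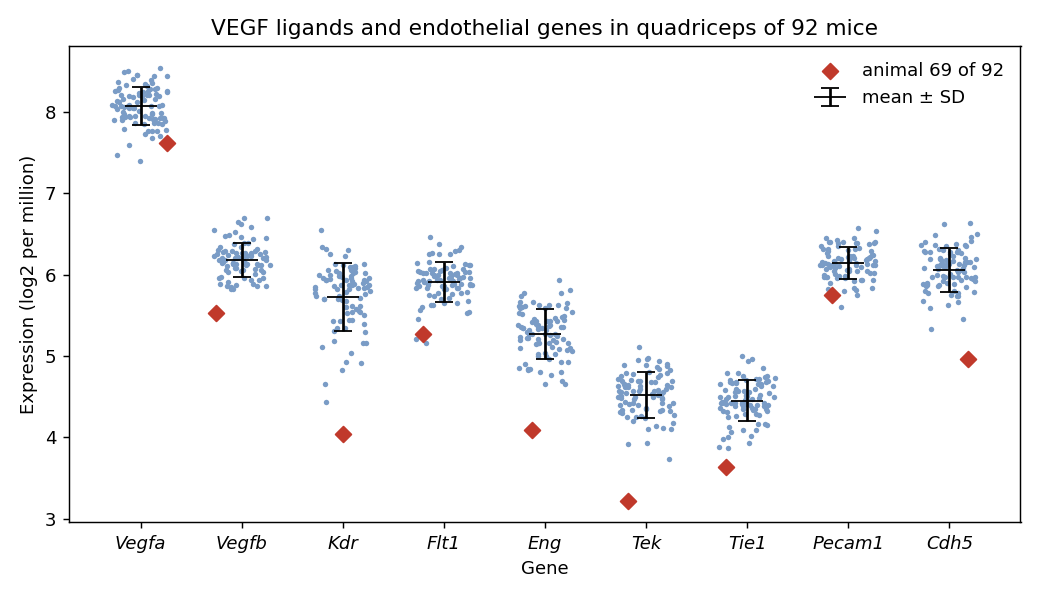
Deposited log2 expression (per-million scale, vertical axis) of each of the 9 genes (horizontal axis); each point is 1 of 92 animals, bars are the mean ± SD, and red diamonds are animal 69. Kdr has the widest spread, from 4.04 to 6.55, and animal 69 is the lowest point for 6 of the 9 genes.

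One animal stood apart. Animal 69 had the lowest value of 6 of the 9 genes and was among the 5 lowest for all 9. Its log2 values were 4.09 for Eng, against 4.66 in the next lowest animal, 3.22 for Tek, against 3.74, and 4.04 for Kdr, against 4.43. Animal 84 was among the 5 lowest for 8 of the genes and animal 1 for 6, and no other animal was so for 5 or more. Scores of other gene lists, each the mean of standardised genes, were also extreme in animal 69: 20 endothelial genes outside the 9 stood at -3.66 SD, 12 genes of mural cells (pericytes and smooth muscle) at -3.66 SD and 8 adipocyte genes at -3.21 SD, the lowest of all animals in each case. Its OXPHOS score, -1.77 SD, was the fifth lowest, its macrophage score stood at 1.46 SD, its slow fibre score at -0.60 SD and its fast fibre score at -0.44 SD. Its slope of expression on transcript length was the third lowest. Slopes on the scores and single genes, pairs, within-animal differences, list counts and most alike genes were recomputed without this animal. For the genes and lists named here, calls that changed and counts that moved by more than 1.5 times are given beside the result. Shares over all genes also moved, and those are given only beside some of these counts.

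The 7 endothelial genes were positively correlated across animals in all 21 pairs, though most calls among the 9 ended once scores of vessel or marker genes entered the fit. Each gene of the table was fitted with limma as a linear function of each of the 9 in turn, and a pair was called when either fit had a Benjamini-Hochberg adjusted p under 0.05 over all genes. Of the 36 pairs, 27 were called, all with a positive slope, while the share of all genes called in these fits, in either direction, was 2.03% for Pecam1, 10.2% for Cdh5, 14.8% for Kdr, 10.7% for Flt1, 13.5% for Tek, 6.64% for Tie1, 3.71% for Vegfa, 9.84% for Vegfb and 3.07% for Eng. Within the 7 endothelial genes 19 of 21 pairs were called, with a median Pearson r of 0.469 and a range from 0.265 to 0.737.

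The tightest group was Cdh5, Kdr, Tek and Tie1, picked from these same r values. All 6 of its pairs were called, with r from 0.567 to 0.737. Its lowest pair, Tek with Tie1 (r = 0.567, rho = 0.453), was close to Tek with Eng outside it (r = 0.544). Tek with Tie1 had 0.454 without the 2 farthest animals and ran from -0.612 to 0.878 within the title-number blocks. Within blocks Kdr with Tie1 ran from -0.0623 to 0.74, Cdh5 with Tek from 0.184 to 0.77 and Cdh5 with Tie1 from 0.283 to 0.855. Cdh5 and Kdr were the closest pair, at r = 0.737 and Spearman's rho = 0.711 (two-sided permutation p = 1e-05 for both, the smallest that 100000 resamples can give; 0.689 without the 2 animals farthest from the median; 0.587 to 0.832 within the title-number blocks). Kdr and Tek followed at r = 0.722 and rho = 0.553 (permutation p = 1e-05 for both; 0.606 without the 2 farthest animals; 0.359 to 0.874 within blocks). The lowest median r with the other 6 was that of Flt1, 0.315; the pairs Flt1 with Cdh5 (r = 0.270, adjusted p at least 0.0644) and Flt1 with Tie1 (r = 0.265, adjusted p at least 0.0728) were the ones not called. Pecam1 and Eng lay between, with all 6 of their endothelial pairs called and medians of 0.422 and 0.495.

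Of the ligands, Vegfa was called with 3 of 7 endothelial genes, namely Flt1, Tie1 and Pecam1, and Vegfb with 4, namely Tie1, Pecam1, Kdr and Cdh5. Vegfa and its receptor Flt1 had r = 0.411 and rho = 0.403 (permutation p = 6e-05 and 2e-05; 0.349 without the 2 farthest animals; 0.204 to 0.665 within blocks; limma adjusted p = 0.00268). Vegfb and Flt1, the one receptor of the pair that VEGF-B binds, had the lowest r of all 36 pairs, 0.0883, with rho = 0.103 (permutation p = 0.403 and 0.327). Vegfa and Vegfb were called together at r = 0.465 and rho = 0.471 (permutation p = 1e-05 for both; 0.456 without the 2 farthest animals; 0.0586 to 0.671 within blocks). With 5 scores of mural, fibroblast, macrophage, adipocyte and blood genes in the fit 7 pairs were called, and with the score of other endothelial genes 8; the mural score had r from 0.344 to 0.703 with the 7 endothelial genes. Without animal 69, 22 pairs were called, and the 5 lost were Cdh5 with Vegfb, Kdr with Vegfb, Kdr with Flt1, Flt1 with Tek and Pecam1 with Cdh5.

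**Figure D2:**
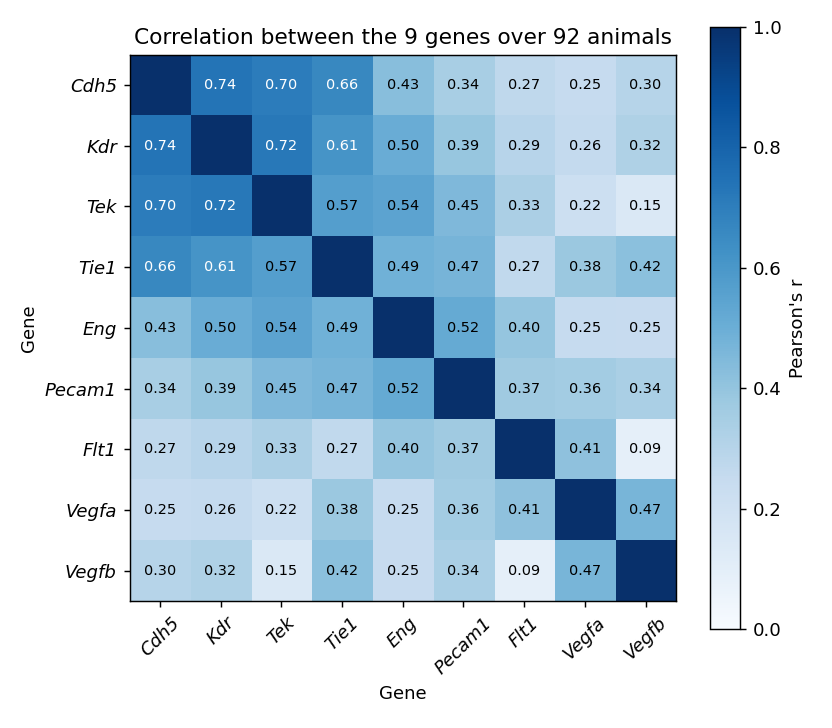
Pearson's r over 92 animals for each pair of the 9 genes (both axes), darker blue for higher r. Cdh5, Kdr, Tek and Tie1 form the darkest block, 0.567 to 0.737, and Flt1 with Vegfb is the palest cell at 0.0883.

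To see how far the genes follow the endothelial content of a sample, each was set against a score of 20 other endothelial genes, among them Emcn, Egfl7, Cldn5 and Erg. Per SD of this score 8 of the 9 rose, against 5.18% of 13421 genes called in either direction and 3.72% rising (limma, Benjamini-Hochberg adjusted p under 0.05). The median r of the 9 was 0.615, against -0.000304 over all genes. Kdr had the steepest slope, 0.27 ± 0.03 log2 units per SD (SE; r = 0.648, rho = 0.539, permutation p = 1e-05 for both; 0.200 to 0.819 within blocks; 0.552 without the 2 farthest animals). Cdh5 had the highest r, 0.699, with rho = 0.659, at a slope of 0.19 ± 0.02 (permutation p = 1e-05 for both; 0.537 to 0.767 within blocks; 0.612 without the 2 farthest animals). Tie1 (0.17 ± 0.02), Tek (0.18 ± 0.02), Eng (0.17 ± 0.03) and Pecam1 (0.13 ± 0.02) also rose.

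Flt1 and Vegfb had the smaller slopes among those called. Flt1 rose by 0.09 ± 0.02 per SD of the endothelial score (adjusted p = 0.0111) and Vegfb by 0.08 ± 0.02 (adjusted p = 0.00473). Both calls depend on animal 69: without it the adjusted p was 0.0838 for Flt1 and 0.0629 for Vegfb, and 6 of the 9 genes were called. Vegfa did not pass, at 0.06 ± 0.02 (adjusted p = 0.124). The mural score moved with the endothelial score (r = 0.670), 8 of 12 mural genes rose with it, and its r with the 7 endothelial genes ran from 0.344 for Flt1 to 0.703 for Tek. With mural, fibroblast, macrophage, adipocyte and blood scores as covariates Pecam1, Cdh5 and Tie1 were still called, at slopes of 0.10, 0.12 and 0.10, and the other 6 were not; with all but the mural score as covariates all 9 were called. The part of mural cells in these relations was not tested beyond that.

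None of the 9 genes was called against fibre type as measured by the slow fibre genes, a count near the share over all genes. The slow fibre score combined 10 genes, including Myh7, the slow myosin, whose summed level differed 20.7-fold between the lowest and the highest animal. Per SD of that score 0 of the 9 genes changed in limma's test, against 0.611% of 13431 genes, and 0 had an unadjusted p under 0.05. Slopes lay between -0.03 ± 0.03 (SE) log2 units for Flt1 and 0.04 ± 0.02 for Vegfb, whose r was 0.175 (rho = 0.195; permutation p = 0.0967 and 0.0619). Pecam1, the capillary stain gene, had r = 0.106 (rho = 0.058; permutation p = 0.312 and 0.582).

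Against the fast glycolytic fibre score, built from 11 genes such as Myh4, Pvalb and Ldha, 0 of the 9 changed either, where 22.1% of 13430 genes were called by limma. An unadjusted p under 0.05 was reached by 1 of them, Cdh5, at a slope of -0.06 ± 0.03 (r = -0.233, rho = -0.326; permutation p = 0.0265 and 0.00164; adjusted p = 0.0862). This count depends on a few animals. Without the 2 animals farthest from the median of the score, Cdh5, Kdr and Tek fell, with slopes of -0.09, -0.13 and -0.10 and adjusted p of 0.00991, 0.0189 and 0.00941, and without animal 69 Cdh5 alone fell (adjusted p = 0.0338). The score also fell with fibroblast (r = -0.463) and macrophage (r = -0.482) scores, whose part in the calls without the 2 farthest animals was not tested. Over all 92 animals the 5 marker scores as covariates moved the slopes of Cdh5, Kdr and Tek from -0.06, -0.05 and -0.05 to -0.04, -0.05 and -0.02, and none of them passed in either fit.

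The genes of the 9 that were called with the OXPHOS score were the ligands. The OXPHOS score combined 28 nuclear genes of the respiratory chain and ATP synthase. Per SD of it 2 of the 9 genes rose in limma's test, where 15.4% of 13413 genes were called in either direction and 8.49% rose (Vegfa and Vegfb). Vegfb rose by 0.17 ± 0.01 log2 units per SD (SE, adjusted p = 1.01e-18), with r = 0.805 and rho = 0.775 (permutation p = 1e-05 for both; 0.772 without the 2 farthest animals). Within the 5 title-number blocks its r lay between 0.677 and 0.923. Vegfa rose by 0.10 ± 0.02 (adjusted p = 0.0009), with r = 0.415 and rho = 0.430 (permutation p = 6e-05 and 2e-05; 0.449 without the 2 farthest animals; -0.0186 to 0.769 within blocks, positive in 4 of 5).

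The 7 endothelial genes had r between -0.0639 for Tek and 0.268 for Tie1 with the OXPHOS score, and none passed. Tie1 was nearest, at a slope of 0.07 ± 0.03 and an adjusted p of 0.0576. The score was lower in samples in which long transcripts read higher: its r with each sample's slope of expression on transcript length was -0.556, that of Vegfb was -0.317, and those of Tek, Kdr, Flt1 and Cdh5 were 0.457, 0.391, 0.379 and 0.329. With the length and GC slopes of each sample as covariates, an alternative chosen after seeing the data, Vegfb rose by 0.19 (adjusted p = 3.61e-19) and Vegfa by 0.13 (0.00035), and Cdh5, Kdr and Tie1 rose as well, at 0.12, 0.18 and 0.09 (adjusted p = 0.00194, 0.00162 and 0.023). Whether the endothelial genes rise with the OXPHOS score therefore depends on that correction, and the calls for the ligands do not.

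**Figure D3:**
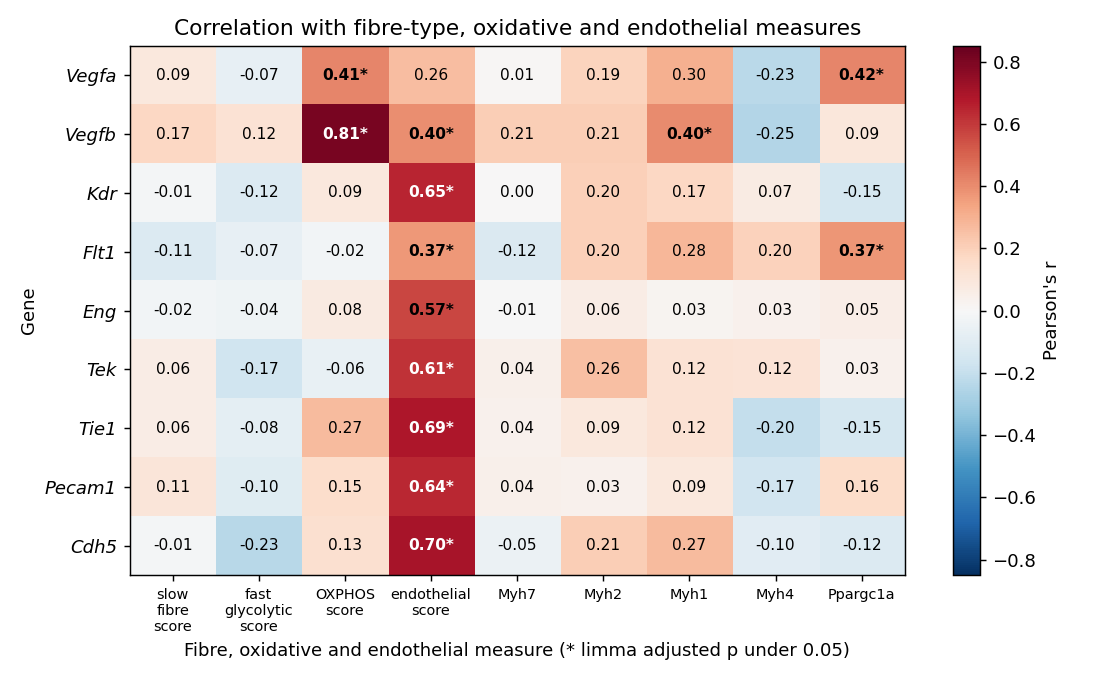
Pearson's r over 92 animals of each of the 9 genes (rows) with 4 list scores and 5 single genes (columns); red is positive, blue is negative, and an asterisk marks a limma adjusted p under 0.05. The endothelial score column is red for all rows and marked in 8, the slow and fast score columns carry no mark, and Vegfb with the OXPHOS score is the darkest cell at 0.805.

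Single genes gave the myosins and Ppargc1a apart, and the number of relations called was near the share over all genes. Of 45 relations of the 9 genes with Myh7, Myh2, Myh1, Myh4 and Ppargc1a, 3 were called by limma, all rising, where the share of all 13440 genes called in either direction was 0.171% for Myh7, 5.26% for Myh2, 3.97% for Myh1, 21.3% for Myh4 and 7.43% for Ppargc1a, and the share rising was 2.57% for Myh1 and 4.29% for Ppargc1a. Vegfb rose by 0.09 ± 0.02 per SD of Myh1, the myosin of fast IIx fibres (adjusted p = 0.00486), with r = 0.404 and rho = 0.382 (permutation p = 6e-05 and 0.00022; 0.348 without the 2 farthest animals; 0.203 to 0.457 within blocks). Vegfa rose by 0.10 ± 0.02 per SD of Ppargc1a (adjusted p = 0.00247), with r = 0.416 and rho = 0.370 (permutation p = 3e-05 and 0.00042; 0.395 without the 2 farthest animals; 0.231 to 0.615 within blocks). Flt1 rose by 0.09 ± 0.02 per SD of Ppargc1a (adjusted p = 0.00918), with r = 0.372 and rho = 0.304 (permutation p = 0.00042 and 0.00341; 0.341 without the 2 farthest animals; 0.307 to 0.629 within blocks).

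Vegfb had r = 0.805 with the OXPHOS score and 0.0947 with Ppargc1a (rho = 0.0441; permutation p = 0.368 and 0.675), while Vegfa had 0.415 and 0.416. With the first 3 principal components as covariates both rose with Ppargc1a, Vegfa by 0.12 and Vegfb by 0.09 per SD (limma adjusted p = 0.00153 and 0.00939), and the call for Flt1 was lost (0.07, adjusted p = 0.114). Kdr had r = -0.152 with Ppargc1a (rho = -0.228; permutation p = 0.146 and 0.029; adjusted p = 0.392). Myh7 and Myh2 were called with none of the 9, with r up to 0.210 for Vegfb with Myh7 (rho = 0.190; permutation p = 0.0454 and 0.0712) and 0.255 for Tek with Myh2 (rho = 0.246; 0.0137 and 0.0183). With Myh4, Vegfb had r = -0.247 (adjusted p = 0.0694) and Vegfa -0.228 (0.0972). Without animal 69 both fell with Myh4, at adjusted p of 0.0149 and 0.0473, as did Tie1 at 0.0434.

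**Figure D4:**
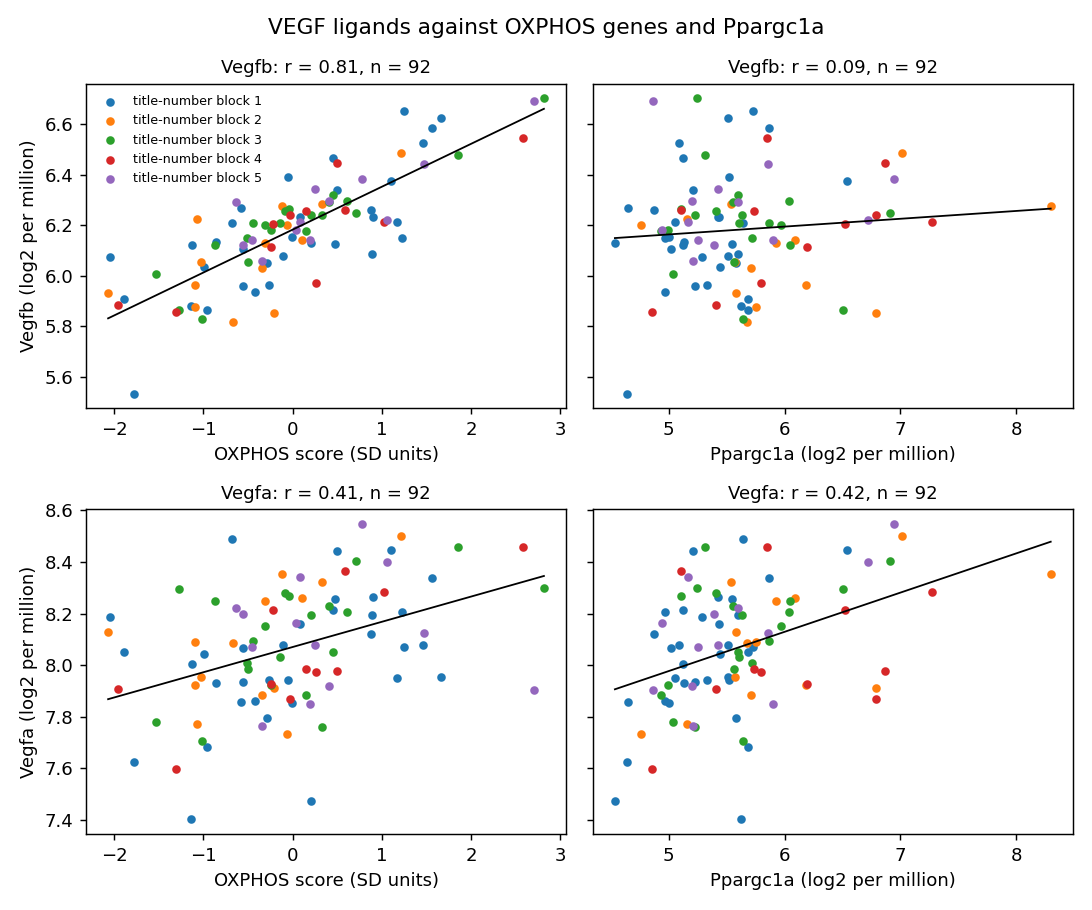
Log2 expression (per-million scale) of Vegfb (top row) and Vegfa (bottom row) against the OXPHOS score in SD units (left) and log2 Ppargc1a (right); points are 92 animals coloured by title-number block, and lines are least-squares fits. Vegfb has r = 0.805 with the OXPHOS score and 0.0947 with Ppargc1a, and Vegfa has 0.415 and 0.416, all without covariates.

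Gene by gene, 27 of the 28 listed OXPHOS genes rose per SD of Vegfb, with a median r of 0.650 against -0.0132 over all genes and 6.15% of 13440 genes rising. They included Cyc1 of complex III (0.14 ± 0.01 log2 units per SD, SE; adjusted p = 4.95e-18), Atp5f1a of ATP synthase (0.14 ± 0.01) and Ndufa9 of complex I (0.11 ± 0.01); Cox7b did not pass (0.07 ± 0.03, adjusted p = 0.0615; 0.0196 without animal 69). Of 16 genes of fatty acid and fuel oxidation 15 rose with Vegfb, for example Acadvl of fatty acid oxidation (0.16 ± 0.02) and Mb, the oxygen store myoglobin (0.30 ± 0.04). These counts restate the OXPHOS relation from the side of the ligand. Some mitochondrial genes were also called with endothelial genes. For example Uqcrc1, picked after its values were seen, rose with Cdh5, Kdr and Tie1 (limma adjusted p = 0.0327, 0.0285 and 0.0351). Without animal 69 those calls ended (0.219, 0.218 and 0.129).

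With Vegfa 14 of the 28 OXPHOS genes and 11 of the 16 fuel genes rose, where 2.58% of all genes did. Among the fuel genes Mb rose by 0.22 ± 0.04 per SD of Vegfa (adjusted p = 0.000347), Ckmt2, the mitochondrial creatine kinase, by 0.21 ± 0.02 (1.56e-10) and Cpt1b, the gate of fatty acid entry into mitochondria, by 0.09 ± 0.02 (0.000469). Of 11 genes for PGC-1, ERR and PPAR regulators 5 rose with Vegfa: Perm1, a muscle effector of PGC-1 and ERR, by 0.25 ± 0.03 (1.56e-10), Esrrb by 0.27 ± 0.05, Esrrg by 0.19 ± 0.04, Esrra by 0.07 ± 0.02 and Ppargc1a by 0.27 ± 0.06. With Vegfb 3 of the 11 rose, Esrra, Esrrb and Perm1, and with Flt1 5, Perm1, Esrrg, Esrrb, Ppara and Ppargc1a. Cdh5 and Kdr had 5 as well (Perm1, Ppargc1b, Esrra, Esrrb and Esrrg in each), without Ppargc1a. The share of all genes rising was 6.15% with Vegfb, 6.36% with Flt1, 6.49% with Cdh5 and 8.5% with Kdr. Without animal 69 Cdh5 had 3 of the 11, with 4.36% of all genes rising; the calls that ended were Perm1 (adjusted p = 0.0559) and Esrra (0.165) with Cdh5, Esrrg with Kdr (0.252), Esrrb with Flt1 (0.1) and Esrra with Vegfa (0.051).

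Vegfa is a textbook target of hypoxia-inducible factors. Of 18 genes of oxygen sensing and response, including Hif1a, Epas1, Pdk1 and Ankrd37, 0 were called with Vegfa in limma's test, where 3.71% of all genes were, and 5 had an unadjusted p under 0.05, at a median r of 0.0576. With so low a share over all genes, a count of 0 is near the background. With Vegfb 1 of 18 rose, the oxygen sensor Egln1 (0.07 ± 0.02, adjusted p = 0.00149), a count near the 6.15% of all genes that rose. With Flt1 4 rose, where 6.36% of all genes did, namely Epas1, which encodes the HIF-2 alpha subunit abundant in endothelium (0.18 ± 0.03, adjusted p = 3.91e-06), Hif3a, Egln1 and Ndrg1. With the first 3 principal components as covariates 3 of the 18 rose with Vegfa, where 6.73% of all genes were called in either direction. Without animal 69 Vegfb had 3 of the 18, Egln3 and Higd1a besides Egln1, with 7.21% of all genes rising, and Flt1 had 2, as Egln1 (adjusted p = 0.165) and Ndrg1 (0.121) no longer passed, with 3.72% rising.

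Of 23 other genes of the VEGF, angiopoietin, Notch and apelin pathways, the number that rose ran from 10 with Kdr to 0 with Vegfa. With Kdr 10 of 23 rose, with Cdh5 9, with Tek and Tie1 7 each, with Flt1 5, with Eng 3 and with Pecam1 2, where the share of all genes rising was 8.5%, 6.49%, 8.24%, 3.78%, 6.36%, 2.34% and 1.48% in that order. Nrp1, the VEGF co-receptor neuropilin, rose by 0.20 ± 0.02 per SD of Kdr (adjusted p = 1.04e-12) and also with Cdh5, Tek, Tie1 and Flt1. Ptprb, the phosphatase that restrains TEK, rose by 0.16 ± 0.02 per SD of Tek (1.2e-07). Flt4, the receptor for VEGF-C, rose with all 7 endothelial genes, for example by 0.16 ± 0.03 per SD of Eng (6.12e-05). Nos3, the endothelial nitric oxide synthase, rose by 0.17 ± 0.03 per SD of Eng (7.39e-05). With Vegfb 1 of the 23 rose, the junction regulator Rasip1, and with Vegfa none rose and 1 fell, Smad6, an inhibitor of BMP signalling (-0.16 ± 0.05, adjusted p = 0.0291). Over all genes 6.15% rose with Vegfb, and 3.71% were called in either direction with Vegfa, so these counts are near the background. Without animal 69 Tek had 4 of the 23, Flt1 3 and Pecam1 1, with 4.39%, 3.72% and 0.863% of all genes rising, and the calls of Flt4 with Tie1 (adjusted p = 0.129) and Nrp1 with Flt1 (0.064) ended.

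Whether 2 genes differ in these slopes was tested on their log2 difference within each animal, in a permutation test of r with Benjamini-Hochberg adjustment over the 12 relations of 3 differences with 4 scores. Kdr minus Flt1 rose with the endothelial score by 0.18 ± 0.04 log2 units per SD (r = 0.438, permutation p = 2e-05, adjusted 0.00024; rho = 0.334, permutation p = 0.0012; 0.391 without the 2 farthest animals; -0.357 to 0.555 within blocks, positive in 4 of 5). The slope of Kdr on this score was thus steeper than that of Flt1 (0.27 against 0.09). Vegfa minus Vegfb fell by 0.07 per SD of the OXPHOS score (r = -0.311, permutation p = 0.00254, adjusted 0.0102), and Tek minus Tie1 fell by 0.09 (r = -0.340, permutation p = 0.00092, adjusted 0.00552). These last results did not hold on ranks (rho = -0.190 and -0.245, adjusted p = 0.277 and 0.109) or without the 2 animals farthest from the median of the score (r = -0.214 and -0.255, adjusted p = 0.121 and 0.092). Within blocks r ran from -0.537 to 0.0699 for Vegfa minus Vegfb, negative in 4 of 5, and from -0.58 to -0.245 for Tek minus Tie1, negative in all 5. With block means removed the adjusted p was 0.0239 and 0.00654. All 3 differences also passed without animal 69, at r = 0.378, -0.301 and -0.392 (adjusted p = 0.00144, 0.0146 and 0.00144). None of them was tested with the length and GC slopes of each sample as covariates. The OXPHOS score had r = -0.556 with the length slope, Tek 0.457 and Tie1 -0.0194. With those covariates Tek and Tie1 both had positive slopes on the OXPHOS score.

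The same differences were set against the 5 single genes after their slopes had been seen, with adjustment over those 15 relations. Vegfa minus Vegfb rose by 0.08 ± 0.02 per SD of Ppargc1a (r = 0.336, rho = 0.331, permutation p = 0.00098 and 0.00138, adjusted 0.0056; 0.324 without the 2 farthest animals; -0.212 to 0.702 within blocks, positive in 4 of 5); this difference was not tested with principal components as covariates. Kdr minus Flt1 fell by 0.15 per SD of Ppargc1a (r = -0.369, rho = -0.370, permutation p = 0.00047 and 0.00027, adjusted 0.0056; -0.357 without the 2 farthest animals; -0.829 to 0.00858 within blocks, negative in 4 of 5). Tek minus Tie1 rose by 0.08 ± 0.03 per SD of Myh4 (r = 0.332, rho = 0.322, permutation p = 0.00112 and 0.00192, adjusted 0.0056; 0.329 without the 2 farthest animals; 0.199 to 0.528 within blocks).

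The genes most like each of the 9 were taken as the 3 with the highest Pearson r over 92 animals among genes outside the 9 with a mean log2 value of at least 1 and an adjusted p under 0.05. For Vegfb they were the respiratory chain genes Cyc1 (r = 0.814), Atp5f1a (0.785) and Ndufa9 (0.770), and for Vegfa Perm1 (0.687), Ckmt2 (0.686) and Akap1, a scaffold of the outer mitochondrial membrane (0.633). For 3 of the 4 genes in the tight endothelial group, the transcription factor gene Ets1 was among them: Cdh5 (Ets1 0.720, Itpkb 0.715, Notch3 0.685), Kdr (Itpkb 0.795, Rasgrf2 0.762, Ets1 0.740) and Tek (Ets1 0.737, Podxl 0.719, Cavin2 0.718). Tie1 shared Itpkb (0.700), followed by Arhgef15 (0.643) and Ushbp1 (0.627). Eng had Podxl (0.714), Ehd2 (0.633) and Caskin2 (0.596). Flt1 had none of these: its nearest were Cyyr1 (0.684), Adgrf5 (0.679), an adhesion receptor of endothelium, and Ncoa3 (0.603). Pecam1 had the lowest values, with Tex2 (0.565), C1qtnf9 (0.555) and Tm4sf1 (0.541). Without animal 69 the same 3 genes were nearest to Pecam1, Flt1 and Vegfa. Of the others, Ndufb10 (r = 0.781) and Atp5f1b (0.766) entered for Vegfb, Elk3 (0.654) for Cdh5, Plxdc1 (0.715) for Kdr in place of Ets1, Fat4 (0.660) for Tek, Vtn (0.642) for Tie1 and Ephb4 (0.558) for Eng.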

How the data were processed

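Polyadenylated RNA of 92 quadriceps samples (500 ng each) was sequenced after KAPA mRNA HyperPrep library preparation, per the labels' protocols. The submitters' processing notes list kallisto 0.50.1, edgeR, bcl2fastq, MultiQC and the build mm10. The authors deposited 1 table of log2 values, 13456 lines, from which 15 repeated lines were removed to leave 13441 genes; the per-million scale was read from the sums, and how low genes were filtered is not given in the sources used here. Depth per library is unknown, so precision comes from the spread between animals. All samples form 1 group, and p-values set each slope or correlation against the scatter between these animals. The animals were taken as independent, and relatedness among them was not modelled. Columns matching no sample numbered 0.

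Each gene was fitted with limma 3.58.1 in R 4.3.3 (linear slope on a standardised predictor, mean-variance trend, Benjamini-Hochberg over all genes tested, threshold 0.05); genes making up a score were left out of its fit. The fit was checked on simulated data. Correlations used two-sided permutation tests with 100000 resamples. Positions and exon lengths are from GENCODE M21 (GRCm38, the assembly of mm10) and promoters from RefSeq. The members and the 18 gene lists were chosen with earlier results of these data known. Named genes are the 9, the 3 most alike genes of each, and list genes past the threshold; list genes given beside a predictor outside that rule (Nrp1, Ptprb, Flt4, Nos3, Acadvl, Cpt1b, Esrrb, Esrrg and the other pathway genes) were picked after their values were seen. Tests planned for other covariates, samples and scales are compared in the closing section.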

Additional observations from a re-analysis of the deposited data

How the results depend on the processing

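Over 423 refits of single slopes on the scores, 365 kept their direction and side of the threshold, 18 newly passed it, 10 no longer passed it, and 30 turned their sign, each at an adjusted p over 0.05 in both fits. The turned slopes are given in log2 units per SD. On the slow fibre score they were 0.0027 for Cdh5 and 0.0066 for Kdr with the block as covariate, and 0.0031 for Cdh5, 0.0189 for Kdr and 0.0096 for Eng without the 2 farthest animals. Length and GC slopes gave 0.0048 for Cdh5, 0.0098 for Kdr and 0.0005 for Eng, principal components 0.0063 for Kdr, and the 5 marker scores -0.0115 for Tek. On the fast glycolytic score the 5 marker scores gave 0.0007 for Pecam1 and 0.0234 for Eng, length and GC slopes 0.0039 for Kdr, 0.0167 for Flt1 and 0.0046 for Eng, and median-centring 0.0053 for Vegfa. For Vegfb that score gave -0.0678 with principal components and -0.0030 with the 4 marker scores, and for Eng 0.0041 with the endothelial score as covariate. On the OXPHOS score the endothelial score as covariate gave -0.0020 for Cdh5, -0.0178 for Kdr and -0.0117 for Eng. Flt1 turned to 0.0626 with principal components, 0.0017 with the 5 and 0.0012 with the 4 marker scores, 0.0218 without the 2 farthest animals, 0.0053 after median-centring and 0.0660 with length and GC slopes. Tek turned to 0.0511 with principal components and 0.0777 with length and GC slopes. Counts that moved by more than 1.5 times are given here; the cause was not tested. Against the fast glycolytic score (0 of 9), 3 genes were called without the 2 farthest animals, 3 on normal scores (fitted without the mean-variance trend) and 1 without animal 69. Against the OXPHOS score (2 of 9), 4 were called with 3 principal components as covariates and 5 with transcript length and GC slopes. Against the endothelial score (8 of 9), 3 were called with 5 marker scores as covariates. Of the pairs (27 of 36), 7 were called with the 5 marker scores and 8 with the endothelial score as covariates; Cdh5 with Kdr, Cdh5 with Tek, Cdh5 with Tie1, Kdr with Tek, Flt1 with Vegfa and Vegfa with Vegfb were called in both. Relations with single genes (3 of 45) came to 8 with principal components, 5 with the 5 marker scores, 7 without the 2 farthest animals, 6 on normal scores, 5 with length and GC slopes, 6 with 4 marker scores without mural cells and 6 without animal 69. Within-animal differences (3 of 12) came to 1 without the 2 farthest animals and 1 on ranks, and to 3 without animal 69. Length and GC slopes, the 4 marker scores and leaving out animal 69 were chosen after seeing the data. No paired analysis was possible because the labels give 1 group. Unknown depth leaves counting error within each value unmeasured, and 1 tissue at 1 age cannot separate vessel number from expression per cell.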

Other observations

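Among subtype markers, 4 of 7 capillary genes, 3 of 5 arterial genes, 1 of 6 venous genes and 1 of 5 lymphatic genes rose with the endothelial score in limma's test (Benjamini-Hochberg adjusted p under 0.05), where 3.72% of 13421 genes did. The venous and lymphatic counts are of 1 gene each. Without animal 69 the lymphatic gene, Ccl21a, did not pass (adjusted p = 0.14), and 3 of the 7 capillary genes rose, with 2.63% of all genes rising. Examples of rising genes were the capillary transcription factor genes Meox2 (0.20 ± 0.03 log2 units per SD, SE) and Tcf15 (0.25 ± 0.04), the arterial ligand gene Efnb2 (0.14 ± 0.03) and the venous receptor gene Ephb4 (0.13 ± 0.02). The capillary genes that did not pass were Rgcc (-0.10 ± 0.05), Gpihbp1 (0.09 ± 0.04) and Car4 (0.09 ± 0.05). Per SD of the OXPHOS score 1 of the 7 capillary genes rose, where 8.49% of all genes did: Gpihbp1, which carries lipoprotein lipase to the capillary surface (0.12 ± 0.04, adjusted p = 0.0179). Cd300lg (0.07 ± 0.03), Meox2 (-0.02 ± 0.04) and Rgcc (-0.02 ± 0.05) did not pass.

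The 4 scores were set against each other in 6 relations, of which 0 passed Benjamini-Hochberg adjustment of the permutation p; 2 had an unadjusted permutation p under 0.05. The lowest adjusted value was 0.0648, for the slow with the fast score (r = -0.260, rho = -0.298; permutation p = 0.0121 and 0.00397) and for the fast with the OXPHOS score (r = 0.241, rho = 0.218; permutation p = 0.0216 and 0.0372). The endothelial with the OXPHOS score had r = 0.200 and rho = 0.190 (permutation p = 0.0553 and 0.0694).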
